A study of Homo sapiens with 15 samples.

Results

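The late transcriptional state of myeloma cells under KB528 was set against the immediate one. The comparison was between 3 libraries taken 24 h after addition of 100 nM KB528 and 3 taken after 1 h, in the human multiple myeloma line RPMI-8226, labelled as wild type. KB528 is labelled as an inhibitor of the lysine acetyltransferase activity of p300. The series held 15 libraries in 5 groups of 3, and besides the 24 h and 1 h groups these were KB528 at 6 h, KB528 at 3 h and a vehicle group given DMSO, taken at 0 h and not carried through the time course. Longer exposure to KB528 and longer time in culture therefore cannot be told apart in any comparison given here. All groups shared the line, the medium with fetal bovine serum and the strand-specific mRNA library kit, and RPMI-8226 is a single line, so the values describe 1 tumour genotype. Abundance was deposited as TPM, a relative abundance that allows for transcript length, and gene rows that averaged 1 TPM or more across the series were taken, 12002 of 26364. The nearest genes inside this limit were BEND6 and DZIP3 at a mean of 1.002 TPM each, and the nearest outside were MME at 0.9996 TPM and EML6 at 0.998 TPM.

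The acetyltransferase p300, encoded by EP300, and its relative CBP, encoded by CREBBP, are coactivators that acetylate histones at enhancers and promoters and are recruited there by transcription factors. Myeloma cells are malignant plasma cells, which depend on the transcription factor IRF4 and carry a large endoplasmic reticulum for immunoglobulin secretion. Immediate early genes such as FOS, FOSB, ATF3 and NR4A1 are transcribed within minutes of a signal or stress and make short-lived RNAs, whereas stable RNAs follow a change in transcription slowly.

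Between 12228 and 12356 genes reached 1 TPM in the 24 h libraries, against 11972 to 12006 in the 1 h libraries. The spike-in rows took 12.3% to 14.5% of the TPM in the 24 h libraries and 12.9% to 15.2% in the 1 h libraries, and replicates correlated across genes with r of 0.995 to 0.998. The 11 plasma cell markers summed to 5151 to 5324 TPM in the 24 h libraries, against 7499.9 to 7759 TPM in the 1 h libraries, with 0 of them higher and 9 lower at 24 h (at an unadjusted p under 0.05 in limma, 0 and 9). Some markers of other lineages were also expressed, and the epithelial list summed to 403 to 416 TPM at 24 h, against 479 to 512 TPM at 1 h. Others were absent, with CD2, CD3D, GZMB and KLRD1 (T and NK cells), FCGR3A, MPO, ELANE, S100A12 and FCN1 (myeloid) and ALAS2 (erythroid) listed at 0 in all 6 libraries. Nearly all of the T and NK sum of 437 to 447 TPM in the 24 h libraries, against 466 to 472 TPM in the 1 h libraries, was CD8B. Nothing in the labels says that replicate libraries were separate cultures, and the p-values therefore rest on a spread between libraries that may be technical. In RNA from whole cultures, fewer cells of a type and less RNA per cell cannot be told apart.

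At 24 h, 5973 genes (49.8% of those tested) were higher than at 1 h, 2394 (19.9%) were lower and 8367 (69.7%) differed in either direction, at an adjusted p under 0.05 in limma with Benjamini-Hochberg adjustment. Fold changes here are 24 h over 1 h on the log2(TPM + 1) scale, which understates the change of low genes. Most changes were small. By at least 2-fold, 250 genes (2.08%) were higher and 355 (2.96%) lower, and the falls reached further than the gains, to a log2 fold change of -4.97 for CDKN1A against 2.70 for LTF. The median of all genes was 0.17 and moved to 0.03 when the libraries were rescaled by median ratios, so a change of a gene or list is read relative to that median. Likewise, counts of list members between 24 h and 1 h are read beside the 49.8% higher and 19.9% lower of all genes. Of all calls 71.4% were higher, against 54.4% with median-ratio scaling and 50.2% after a transcript length correction. Both alternatives recentre each library, the correction within groups of similar transcript length, so a more even split follows from the setting itself. Without the correction, the medians of such groups of protein-coding genes ran from 0.09 to 0.20. With spike-in scaling the counts were 2923 higher and 1001 lower. With the pseudocount at 0.1, 550 genes were at least 2-fold higher and 454 lower, so that the excess of 2-fold falls turned round, and without small RNA genes the counts were 248 and 247. The number at least 2-fold higher was 121 with the limit raised to 5 TPM, 132 with median-ratio scaling and 115 after the length correction. The 3 libraries at 24 h all lay above the 3 at 1 h for 6727 genes (56%) and all below for 2823 (23.5%).

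**Figure D1:**
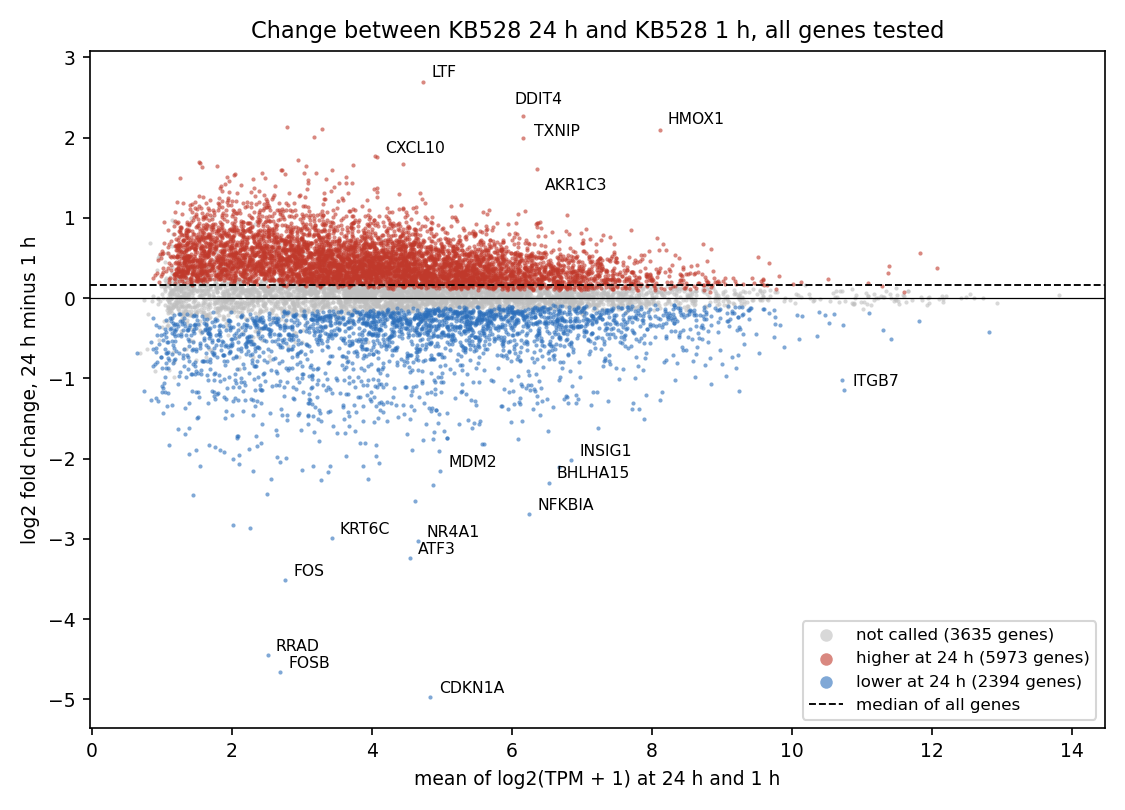
Log2 fold change between KB528 24 h and KB528 1 h (y axis) against the mean of log2(TPM + 1) at both times (x axis), one point per gene, with genes higher at 24 h in red, lower in blue and not called in grey. The cloud sits around the dashed median of 0.17, and the points that stand furthest from it lie below, down to CDKN1A at -4.97, while LTF at 2.70 is the highest.

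The most reduced transcript was CDKN1A, the gene of the cell cycle inhibitor p21 and a classical target of p53. CDKN1A had 4.64, 3.82 and 3.86 TPM in the 24 h libraries, against 156, 157 and 163 TPM in the 1 h libraries and 17.0, 17.0 and 21.3 TPM in the DMSO libraries. All 24 h values lay below every DMSO value, and all 1 h values far above them. The log2 fold change between 24 h and 1 h was -4.97 ± 0.08 (SE, limma adjusted p = 1.0e-15). MDM2, the ubiquitin ligase that holds p53 down and is itself induced by it, had 14.2, 13.4 and 14.1 TPM at 24 h, against 63.8, 65.0 and 66.6 TPM at 1 h and 10.98, 9.63 and 11.3 TPM in DMSO. Its fall was -2.15 ± 0.06 (SE, limma adjusted p = 1.7e-13), and unlike CDKN1A it stayed above the DMSO libraries at 24 h. AEN, a nuclease gene induced by p53, averaged 36.1 ± 0.336 TPM at 24 h, 107 ± 4.84 TPM at 1 h and 57.5 ± 4.09 TPM in DMSO (SD, n = 3 each). TNFRSF10D, a decoy receptor for the death ligand TRAIL, averaged 3.74 ± 0.376 TPM at 24 h, 11.7 ± 0.290 TPM at 1 h and 4.53 ± 0.313 TPM in DMSO. Both fell, by 1.54 and 1.43 on the log2 scale (limma adjusted p = 1.9e-11 and 2.2e-10).

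Over the list of p53 target genes, 30 of 36 passed the limit on low values. Of these 19 were lower and 10 higher at 24 h, 10 of the falls were at least 2-fold and none of the gains were, and the median was -0.27. Set against DMSO at 24 h, 16 members were above and 6 below, where the shares of all genes were 56.1% and 15.2%. At 1 h, 23 members were above DMSO and 2 below, where the shares of all genes were 15% and 7.57%. These DMSO comparisons share the same 3 libraries, so the counts are given side by side only. BBC3, which encodes the cell death protein PUMA and was picked out after its values were seen, had 6.64, 7.98 and 7.55 TPM at 24 h, against 34.7, 36.5 and 25.5 TPM at 1 h and 7.49, 5.85 and 7.52 TPM in DMSO. Its 24 h and DMSO libraries overlapped, and the 1 h libraries stood clear of both.

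The AP-1 subunit genes and ATF3 made up the next block of large falls. Promoters are shown for FOS and FOSB, chosen among the members that fell. The windows run from 250 bases before to 50 bases after the annotated start (RefSeq, GRCh38.p14). Capitals mark TGACG, the core of the cyclic AMP response element, bound by ATF and CREB family factors. Both matches lie on the strand of the gene, at -64 from the start of FOS (chr14:75278578-75278877, plus strand) and at -60 from that of FOSB (chr19:45467746-45468045, plus strand).
FOS: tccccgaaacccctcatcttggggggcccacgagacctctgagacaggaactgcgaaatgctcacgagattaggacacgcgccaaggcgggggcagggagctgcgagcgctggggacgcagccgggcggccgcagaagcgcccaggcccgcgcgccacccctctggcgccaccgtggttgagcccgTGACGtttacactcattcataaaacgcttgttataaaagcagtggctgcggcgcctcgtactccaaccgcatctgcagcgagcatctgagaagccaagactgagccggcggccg
FOSB: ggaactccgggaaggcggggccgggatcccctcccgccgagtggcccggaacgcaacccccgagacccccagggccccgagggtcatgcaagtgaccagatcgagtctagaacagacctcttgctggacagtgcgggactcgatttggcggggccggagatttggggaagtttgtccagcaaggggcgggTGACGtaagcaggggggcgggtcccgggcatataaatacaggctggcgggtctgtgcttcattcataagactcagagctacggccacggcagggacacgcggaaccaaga
Searched on both strands, TGACG was found in 8 of the 11 AP-1 members and in 9 of the 16 immediate early members that had a window, and in 25% of 27305 promoter windows of the same length. Not all members with TGACG fell: MAFG, MAFF and BTG2 had log2 fold changes of 0.69, 0.09 and 0.82, while the others with it had lower values at 24 h. Any tie between the motif and the falls was not tested. The first letters, TGAC, also open the AP-1 site TGACTCA, which was not searched.

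FOSB had 0.193, 0.276 and 0.382 TPM in the 24 h libraries, against 31.3, 32.3 and 30.8 TPM in the 1 h libraries and 2.93, 2.71 and 5.97 TPM in DMSO. The 24 h libraries lay below DMSO and the 1 h libraries above it, and the log2 fold change was -4.66 ± 0.18 (SE, limma adjusted p = 2.2e-11). FOS, the founding member of the family, differed from FOSB in where DMSO lay. It had 1.17, 0.947 and 0.878 TPM at 24 h, against 21.9, 23.1 and 20.7 TPM at 1 h and 38.6, 35.0 and 55.8 TPM in DMSO, so that FOS was already below DMSO at 1 h and lower again at 24 h. The difference between 24 h and 1 h was -3.52 ± 0.13 (SE, limma adjusted p = 1.3e-11). JUN, the main dimer partner of FOS, had 9.03, 9.75 and 8.96 TPM at 24 h, against 61.1, 59.3 and 54.0 TPM at 1 h and 35.4, 33.4 and 46.2 TPM in DMSO. ATF3, a stress-induced repressor of the same superfamily, had 6.73, 6.77 and 6.20 TPM at 24 h, against 71.1, 71.9 and 67.7 TPM at 1 h and 8.84, 7.48 and 9.91 TPM in DMSO. For JUN and ATF3 the DMSO libraries overlapped neither time, and the log2 fold changes were -2.53 and -3.24 (limma adjusted p = 3.1e-11 and 1.3e-13). No overlap between 24 h and 1 h was a condition for naming the largest changes, and so adds nothing here.

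Smaller falls of the same kind were seen in FOSL1, JUNB and JUND, the other AP-1 subunits named. FOSL1 averaged 6.04 ± 0.580 TPM at 24 h, 32.4 ± 0.783 TPM at 1 h and 7.91 ± 1.24 TPM in DMSO. JUNB averaged 54.4 ± 0.370, 134 ± 3.93 and 62.6 ± 3.31 TPM at 24 h, at 1 h and in DMSO, and JUND 139 ± 2.57, 396 ± 11.7 and 172 ± 15.4 TPM in the same order (SD, n = 3 each). In all, 15 of 17 listed AP-1 genes were tested, with 8 lower, 3 higher, a median of -0.51 and 7 falls of at least 2-fold.

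The immediate early genes of the NR4A, EGR and IER families gave the lowest median of any list, -0.98, beside 0.17 for all genes. Of 21 members tested (31 listed), 18 were lower and 1 higher. NR4A1, an orphan nuclear receptor, had 7.45, 8.27 and 7.96 TPM at 24 h, against 71.3, 71.8 and 71.0 TPM at 1 h and 11.1, 10.9 and 13.4 TPM in DMSO, a change of -3.03 ± 0.08 (SE, limma adjusted p = 2.6e-13). GADD45B, a stress sensor upstream of MAP kinases, averaged 24.4 ± 0.760 TPM at 24 h, 88.6 ± 1.18 TPM at 1 h and 59.4 ± 2.61 TPM in DMSO. IER2 averaged 35.9 ± 1.13 TPM at 24 h, 123 ± 6.50 TPM at 1 h and 62.6 ± 7.81 TPM in DMSO. In each of these genes the 24 h mean was the lowest of the 3 groups. Set against DMSO at 24 h, the list had 1 gene above and 13 below (56.1% and 15.2% of all genes). At 1 h, 14 were above DMSO and 3 below (15% and 7.57% of all genes).

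A further 4 regulators were above DMSO at 1 h, lower at 24 h, and ended at different levels. NFKBIA, which encodes the inhibitor IkB-alpha and is itself a target of NF-kB, had 28.99, 29.2 and 28.1 TPM at 24 h, against 188, 193 and 192 TPM at 1 h and 23.8, 22.7 and 25.7 TPM in DMSO. It fell by 2.69 on the log2 scale (limma adjusted p = 1.3e-14) and remained above DMSO at 24 h. RRAD, a Ras-related GTPase, was close to absent except at the early times, with 0.204, 0.380 and 0.0837 TPM at 24 h, against 28.3, 26.3 and 22.3 TPM at 1 h and 0.282, 0.274 and 0.450 TPM in DMSO. Here the 24 h and DMSO libraries overlapped. HEXIM1, which holds the elongation kinase P-TEFb inactive and responds to many drugs that act on transcription, had 17.1, 17.99 and 15.9 TPM at 24 h, against 50.1, 51.1 and 36.2 TPM at 1 h and 16.9, 15.9 and 17.99 TPM in DMSO. Its difference from DMSO at 24 h was 0.00 (limma adjusted p = 0.97), while the difference between 24 h and 1 h was -1.37 ± 0.10 (SE, limma adjusted p = 1.9e-08). HEXIM1 was higher still at 3 h and 6 h, at means of 83.1 and 59.3 TPM. RGS16, which switches off G protein signals, had 10.8, 13.3 and 12.1 TPM at 24 h, against 64.3, 66.1 and 63.2 TPM at 1 h and 34.7, 31.3 and 36.6 TPM in DMSO, with all 24 h values below every DMSO value.

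**Figure D2:**
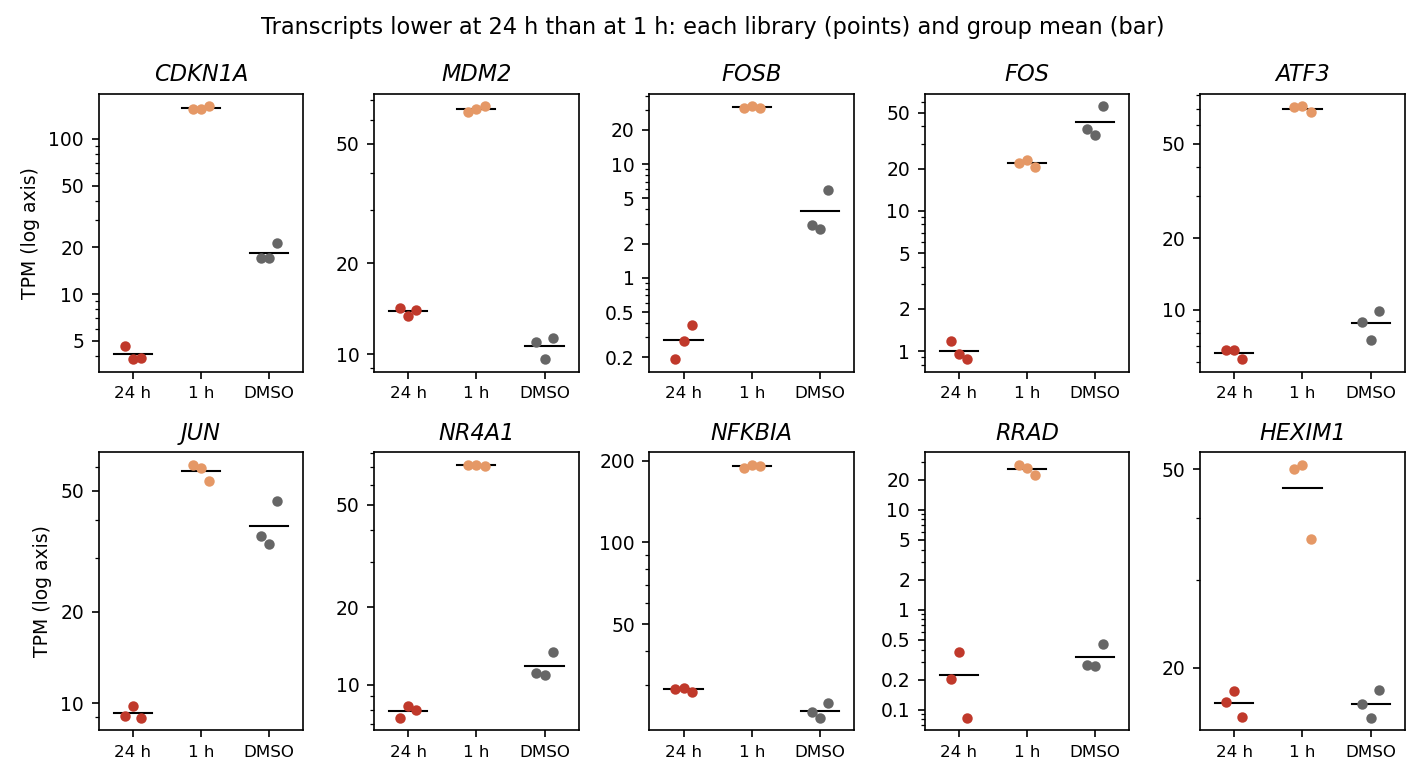
TPM on a log axis (scales differ between panels) for 10 transcripts in the KB528 24 h, KB528 1 h and DMSO libraries, with points for libraries and bars for the means of 3. The 1 h libraries are the highest in every panel except FOS, where DMSO is highest. The 24 h libraries of CDKN1A, FOSB, FOS, ATF3, JUN and NR4A1 lie below DMSO, whereas those of RRAD and HEXIM1 overlap it.

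The wider NF-kB list did not share the fall of NFKBIA. Of 29 members tested, 10 (34.5%) were higher and 7 (24.1%) lower at 24 h, beside 49.8% and 19.9% of all genes. The median was 0.03 and became -0.11 with median-ratio scaling. CXCL10, a chemokine that attracts activated T cells and a target of both NF-kB and interferon, rose, with 31.9, 27.99 and 29.8 TPM at 24 h, against 8.52, 7.72 and 8.05 TPM at 1 h and 4.97, 4.84 and 3.37 TPM in DMSO. CYLD, a deubiquitinase that restrains the pathway, also rose, by 0.60 (limma adjusted p = 4.9e-07).

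Small nucleolar RNA genes moved opposite to the bulk of the table. Among 193 small nucleolar and Cajal body RNA genes, which guide the modification of ribosomal and spliceosomal RNA, 148 were lower and 1 higher at 24 h than at 1 h, with a median of -1.03. Their median against DMSO was -0.24 at 24 h and 0.75 at 1 h. For the 194 microRNA genes the counts were 33 lower and 24 higher, with a median of -0.04. Small RNA genes took 0.98% to 1.05% of the TPM in the 24 h libraries and 1.44% to 1.57% in the 1 h libraries. Many of these RNAs are encoded inside introns of host genes, so the split of reads between the small RNA and its host is uncertain. The libraries were made with an mRNA kit, and whether these rows measure the mature small RNAs was not tested. Spliced snoRNA host genes were lower in 15 of 21 and higher in 1 (median -0.40). SNHG12 had 75.5, 73.9 and 76.6 TPM at 24 h, against 187, 178 and 198 TPM at 1 h and 90.3, 86.5 and 82.3 TPM in DMSO. GAS5 and SNHG1 averaged 277 ± 1.41 and 225 ± 6.79 TPM at 24 h, against 433 ± 5.72 and 457 ± 8.48 TPM at 1 h (SD, n = 3 each).

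Protein genes of ribosome assembly fell as a block. Of 54 tested genes of nucleolar ribosome biogenesis and MYC targets, 47 were lower at 24 h, 0 were higher and 7 did not pass the test, with a median of -0.44. At an unadjusted p under 0.05 in limma, 48 were lower and 0 higher. The range was narrow, from -1.03 to 0.04. At 1 h, 22 members were above DMSO and 0 below (15% and 7.57% of all genes). At 24 h, 0 were above DMSO and 44 below (56.1% and 15.2% of all genes). NOP56, a core protein of box C/D ribonucleoproteins, averaged 289.5 ± 4.16 TPM at 24 h, 501 ± 11.6 TPM at 1 h and 380.0 ± 6.61 TPM in DMSO. NOP16 had 41.7, 46.0 and 43.4 TPM at 24 h, against 90.7, 90.9 and 86.3 TPM at 1 h and 82.7, 81.5 and 78.8 TPM in DMSO. ODC1, the first enzyme of polyamine synthesis and a textbook MYC target, had 387, 375 and 373 TPM at 24 h, against 735, 734 and 753 TPM at 1 h. MYC, a transcription factor known to activate many such genes, had 319.9, 314 and 312 TPM at 24 h, against 662, 666 and 653 TPM at 1 h and 799, 741 and 883 TPM in DMSO. Its fall between 1 h and 24 h was -1.06 ± 0.06 (SE, limma adjusted p = 8.4e-10), and the 3 groups did not overlap. MYC was thus below DMSO at 1 h already, and any tie between it and the fall of the list was not tested. MXD1, which competes with MYC for their shared partner MAX, was lower at 24 h than at 1 h too, at 8.30, 7.76 and 7.77 TPM against 15.4, 14.6 and 14.8 TPM, but was above the 4.79, 4.22 and 5.16 TPM of DMSO. The proteins of the mature ribosome hardly moved: of 78 cytosolic ribosomal protein genes 0 were higher and 2 lower, RPL10 and RPL36A, by limma with adjustment, of which RPL10 lost its call with spike-in scaling. At an unadjusted p under 0.05 in limma 1 was higher and 3 were lower, and the median was 0.01 (-0.14 with median-ratio scaling).

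Some transcripts were below DMSO at 1 h and rose towards it or past it by 24 h. TXNIP, an alpha-arrestin that binds thioredoxin and limits glucose uptake, had 145, 141 and 141 TPM at 24 h, against 34.1, 34.0 and 36.5 TPM at 1 h and 188, 168 and 176 TPM in DMSO. The 24 h values were still below those of DMSO, and the change between 24 h and 1 h was 1.996 ± 0.05 (SE, limma adjusted p = 3.9e-14). DDIT4, a stress-induced inhibitor of mTORC1, had 154, 156 and 155 TPM at 24 h, against 32.1, 32.4 and 30.1 TPM at 1 h and 99.5, 98.4 and 105 TPM in DMSO. In contrast to TXNIP, DDIT4 ended above DMSO, and its change was 2.27 ± 0.05 (SE, limma adjusted p = 3.7e-14). ZNF217, a zinc finger transcription factor, had 23.5, 21.9 and 22.3 TPM at 24 h, against 6.02, 6.71 and 6.67 TPM at 1 h and 16.9, 13.5 and 18.9 TPM in DMSO. SERTAD3 averaged 10.3 ± 0.313 TPM at 24 h, 2.77 ± 0.503 TPM at 1 h and 7.93 ± 0.422 TPM in DMSO. CISH, a feedback inhibitor of STAT5 signalling, averaged 9.58 ± 0.129 TPM at 24 h, 4.99 ± 0.0955 TPM at 1 h and 12.8 ± 1.58 TPM in DMSO, and so rose by 0.82 without reaching DMSO. TGIF1, a repressor of SMAD transcription, and ARRDC3, another alpha-arrestin, were below DMSO at 1 h and rose by 1.14 and 0.80 between 24 h and 1 h. The list of alpha-arrestins and mTOR inhibitors was split, with 6 of 13 tested members higher and 4 lower and a median of 0.00 (-0.15 with median-ratio scaling).

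Other gains came with little or no change at 1 h. LTF, which encodes the iron-binding protein lactoferrin, had the largest increase, with 68.1, 67.0 and 65.7 TPM at 24 h, against 9.49, 9.30 and 9.601 TPM at 1 h and 8.21, 7.57 and 8.57 TPM in DMSO. The log2 fold change was 2.70 ± 0.06 (SE, limma adjusted p = 6.0e-14). LTF is also a neutrophil granule gene, and the summed TPM of the 18 myeloid markers, LTF among them, was 160.1 to 166 at 24 h and 108 to 118 at 1 h. Of the 5 myeloid markers tested 2 were higher, LTF and CD33, and 2 were lower, CD68 falling by 0.57 and S100A9 by 0.67. CD33, picked out after its values were seen, had 60.1, 56.7 and 55.9 TPM at 24 h, against 48.5, 46.5 and 45.6 TPM at 1 h. These markers moved both ways, and their part in the rise of LTF was not tested. HMOX1, the heme oxygenase that breaks down heme and releases its iron, had 561, 582 and 564 TPM at 24 h, against 132, 130.1 and 134 TPM at 1 h and 147, 145 and 162 TPM in DMSO. Its rise of 2.10 ± 0.05 (SE, limma adjusted p = 3.7e-14) was also among the 5 largest gains in TPM.

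The aldo-keto reductases AKR1C1 and AKR1C3, which reduce steroids and reactive carbonyls, rose by 2.11 and 1.61. AKR1C3 had 140.3, 142 and 143 TPM at 24 h, against 45.5, 45.9 and 45.7 TPM at 1 h and 53.1, 47.6 and 48.3 TPM in DMSO. AKR1C genes are near-identical copies, so the split of reads between them is uncertain. HMOX1 and AKR1C1 are known targets of the antioxidant factor NRF2, but the NRF2 list as a whole went both ways. Of its 29 members 13 were higher and 10 lower, and the median was -0.02, turning to 0.02 with spike-in scaling. NFE2L2, the gene of NRF2 itself, had 48.4, 45.4 and 47.4 TPM at 24 h, against 32.2, 32.1 and 32.0 TPM at 1 h, and GPX4, the lipid peroxidase, averaged 253 ± 9.06 TPM at 24 h and 182 ± 2.94 TPM at 1 h (SD, n = 3 each).

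Several genes were near their DMSO level at 1 h and were far above it at 24 h. PEX5L had 31.5, 28.97 and 27.997 TPM at 24 h, against 7.93, 7.99 and 7.78 TPM at 1 h and 7.55, 6.78 and 8.31 TPM in DMSO. ABTB1 averaged 37.7 ± 1.26 TPM at 24 h, 11.1 ± 0.786 TPM at 1 h and 10.99 ± 0.996 TPM in DMSO. COL9A2, a collagen IX chain, and PKN3, a protein kinase gene, averaged 13.7 ± 0.655 and 17.7 ± 1.504 TPM at 24 h, against 3.73 ± 0.430 and 5.17 ± 0.206 TPM at 1 h. Their 1 h and DMSO libraries overlapped in each case. CALHM2 and MFI2-AS1 were below DMSO at 1 h, at -0.54 and -0.67, and rose by 1.72 and 2.003 between 24 h and 1 h. For MFI2-AS1 the name marks an antisense gene, and the sources used here do not say whether counting used the strand.

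**Figure D3:**
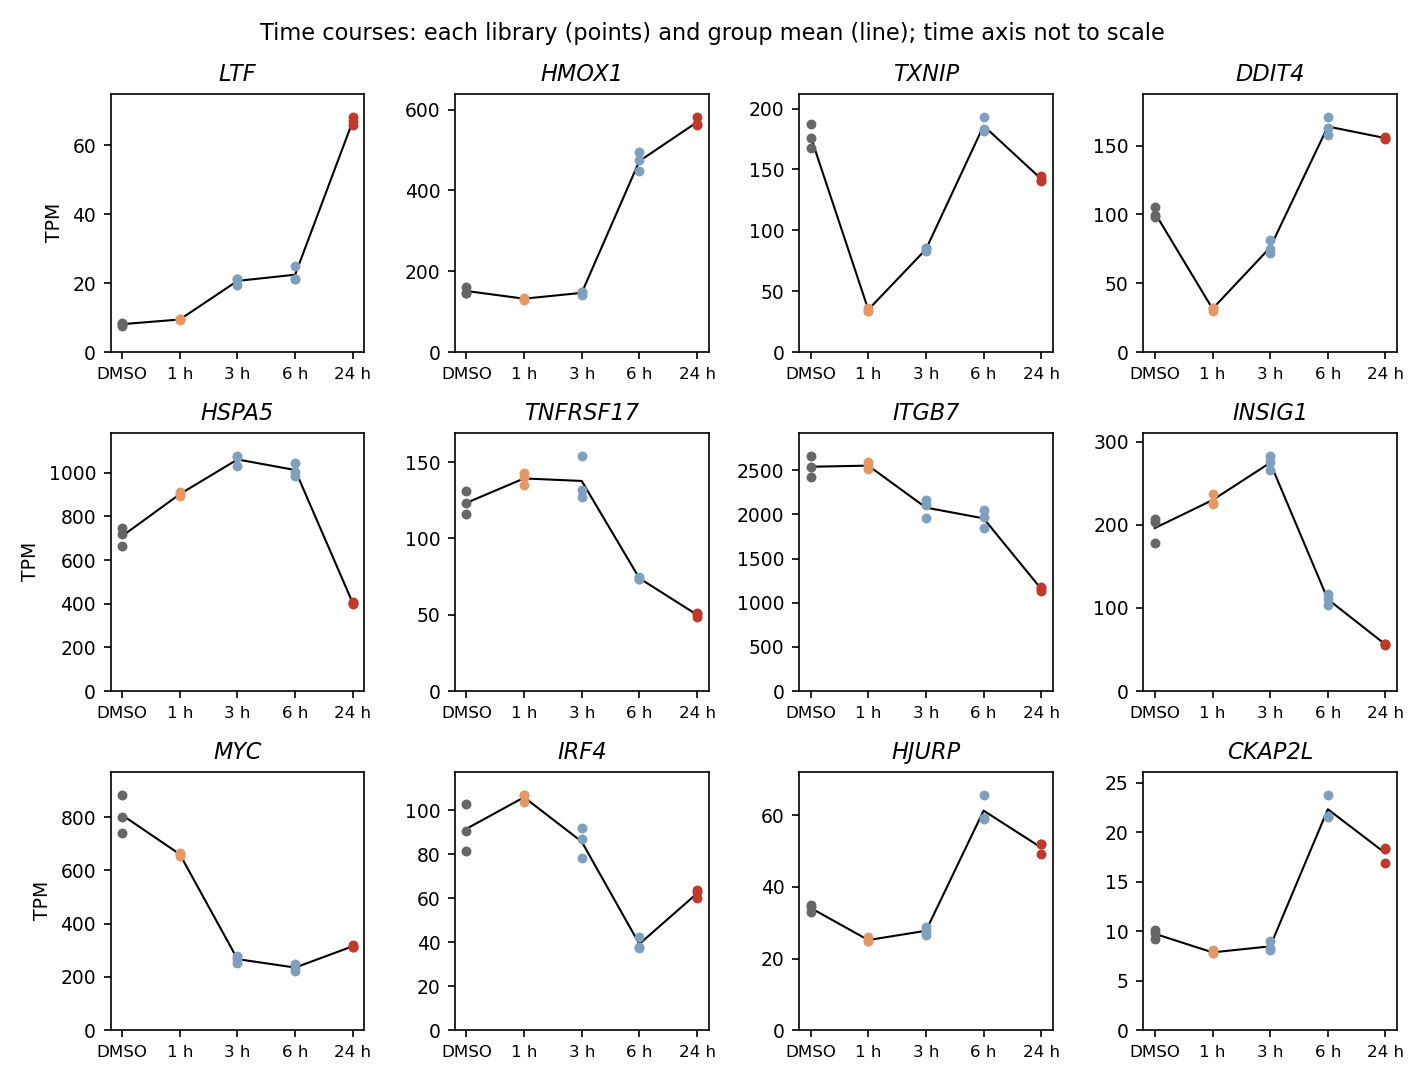
TPM of 12 transcripts in order of time (DMSO, 1, 3, 6 and 24 h, not to scale), with points for libraries and a line through the means of 3. TXNIP and DDIT4 dip at 1 h and have risen by 6 h, LTF has its main rise after 6 h, and INSIG1, HSPA5, TNFRSF17 and ITGB7 are lowest at 24 h, whereas MYC and IRF4 are lowest at 6 h. HJURP and CKAP2L are highest at 6 h.

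Among the 15 regulators and markers singled out for myeloma and this drug target, 9 were lower at 24 h, 1 was higher and 5 did not pass the test. IRF4 had 62.9, 63.6 and 60.1 TPM in the 24 h libraries, against 107, 107 and 104 TPM in the 1 h libraries and 90.5, 81.7 and 103 TPM in DMSO. The 24 h libraries stood below all 1 h and DMSO libraries and the change was -0.76 ± 0.08 (SE, limma adjusted p = 4.0e-07), while IRF4 was lower still at 6 h, at a mean of 39.2 TPM. POU2AF1, the B cell coactivator OCA-B, had 71.2, 69.2 and 69.4 TPM at 24 h, against 121, 120.2 and 116 TPM at 1 h and 108, 97.5 and 126 TPM in DMSO. XBP1, the factor that builds the secretory apparatus of plasma cells, had 401, 399 and 395 TPM at 24 h, against 624, 626 and 626 TPM at 1 h and 563, 527 and 546 TPM in DMSO. CCND2, a D-type cyclin and known MAF target in myeloma, averaged 123 ± 2.19 TPM at 24 h, 193 ± 1.59 TPM at 1 h and 153 ± 11.9 TPM in DMSO.

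Not all identity factors followed. PRDM1, the plasma cell repressor BLIMP-1, had 22.4, 21.7 and 21.3 TPM at 24 h, against 23.3, 23.0 and 23.4 TPM at 1 h, a difference of -0.09 ± 0.10 (SE, limma adjusted p = 0.43). With median-ratio scaling this became -0.23 and passed the test, as it did after the length correction and with only the compared libraries in the fit. MEF2C and IKZF3 were at -0.05 and 0.05 and were not called (limma adjusted p = 0.47 and 0.57), although MEF2C was called lower with median-ratio scaling and after the length correction. IKZF1 rose by 0.26 (limma adjusted p = 0.014), a call that was lost with median-ratio scaling at 0.12, with spike-in scaling, after the length correction and, at 0.23, without 24 h replicate 1. MAF was lower by 0.24 (limma adjusted p = 0.025), with 277, 292 and 278 TPM at 24 h, against 358, 360.5 and 289 TPM at 1 h. The 1 h and 24 h libraries of MAF overlapped, and the call was lost with no limit on low values and with spike-in scaling. It was also lost without 24 h replicate 1 or 3, at -0.23 in each case, and without 1 h replicate 1 or 2, at -0.19 in each case. The list of plasma cell transcription factors had 13 of 24 tested members lower and 5 higher, with KLF2 and MYC at least 2-fold lower and ID3, an inhibitor of E proteins, at least 2-fold higher. BHLHA15, the secretory cell factor MIST1 and no member of that list, had 38.9, 42.2 and 40.2 TPM at 24 h, against 211, 207 and 190.3 TPM at 1 h and 161, 151 and 169.6 TPM in DMSO. Its change was -2.30 ± 0.09 (SE, limma adjusted p = 1.4e-11). KLF2, a factor of B cell homing and quiescence, had 13.2, 13.0 and 13.9 TPM at 24 h, against 45.0, 49.3 and 49.9 TPM at 1 h and 41.9, 38.7 and 47.1 TPM in DMSO.

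Genes downstream of MAF were mostly lower. Of 10 tested members of the MAF programme, 8 were lower and 2 higher, with a median of -0.67. ITGB7, the integrin subunit through which these cells adhere to stroma, was also among the largest losses in TPM, with 1155, 1179 and 1134 TPM at 24 h, against 2589, 2547 and 2515 TPM at 1 h and 2535, 2419 and 2659 TPM in DMSO. The 1 h and DMSO libraries of ITGB7 overlapped, and it fell by 1.14 between 24 h and 1 h (limma adjusted p = 3.4e-11). DEPTOR, an inhibitor of mTOR, had 80.6, 78.6 and 76.0 TPM at 24 h, against 189.9, 186 and 188 TPM at 1 h. RND3 and TLR4 fell by 1.57 and 1.39.

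Surface antigens of myeloma were on balance lower, with 12 of 23 tested members lower and 7 higher and a median of -0.16. TNFRSF17, which encodes BCMA, the receptor used as a target of antibody and cell therapies, had 48.3, 50.9 and 50.9 TPM at 24 h, against 140.5, 135 and 143 TPM at 1 h and 131, 123 and 116 TPM in DMSO. The change was -1.46 ± 0.06 (SE, limma adjusted p = 5.0e-11). CD38, another therapeutic target, had 29.5, 28.3 and 28.1 TPM at 24 h, against 56.3, 55.6 and 56.6 TPM at 1 h. SDC1, the plasma cell marker CD138, averaged 158 ± 2.85 TPM at 24 h, 239 ± 7.32 TPM at 1 h and 243 ± 17.4 TPM in DMSO. For TNFRSF17, CD38 and SDC1 every 24 h library lay below every 1 h library, as it did for 23.5% of all genes. Of 18 B cell identity genes tested 8 were lower and 5 higher, FCER2, CD72 and FCRLA falling by 1.42, 1.45 and 1.09, while the summed TPM of that list was 697 to 717 at 24 h and 763 to 806 at 1 h.

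The machinery of secretion was lower at 24 h with few exceptions. Of 54 tested genes for chaperones, translocation and secretion in the endoplasmic reticulum (ER), 46 were lower and 3 higher, and the median was -0.49. Promoter windows of HSPA5 (chr9:125241294-125241593, minus strand) and XBP1 (chr22:28800520-28800819, minus strand) are shown for the ER stress response element, the site through which ATF6 and its partner NF-Y act. Sequences are from RefSeq (GRCh38.p14), 5' to 3' on the strand of the gene, and capitals mark the match, CCAAT and CCACG with 9 bases of any kind between them, at -66 and -52 from the start.
HSPA5: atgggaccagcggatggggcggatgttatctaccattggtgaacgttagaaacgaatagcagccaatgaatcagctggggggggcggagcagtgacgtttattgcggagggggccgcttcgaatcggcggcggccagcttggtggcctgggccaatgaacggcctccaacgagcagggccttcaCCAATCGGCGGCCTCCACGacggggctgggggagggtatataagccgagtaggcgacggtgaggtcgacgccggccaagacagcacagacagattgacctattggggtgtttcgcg
XBP1: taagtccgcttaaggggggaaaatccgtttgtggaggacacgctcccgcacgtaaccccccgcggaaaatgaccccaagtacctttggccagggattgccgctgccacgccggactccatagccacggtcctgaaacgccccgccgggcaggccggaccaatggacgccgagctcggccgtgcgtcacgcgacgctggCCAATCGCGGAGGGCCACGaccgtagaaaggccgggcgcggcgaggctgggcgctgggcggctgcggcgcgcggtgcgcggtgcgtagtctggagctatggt
On either strand, this element was found in the windows of 7 of the 47 ER members that had one, and in 22 of 27305 windows in all (0.0806%). The 7 were HSPA5, HSP90B1, CALR, CANX, CRELD2, XBP1 and ERO1B. Of these ERO1B hardly moved, at -0.01, and the others ran from -1.16 for HSPA5 to -0.48 for CALR. Any tie between the element and the falls was not tested.

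HSPA5, the ER chaperone BiP, had 407, 405 and 397 TPM at 24 h, against 894, 902 and 911 TPM at 1 h and 718, 664 and 749 TPM in DMSO. All 24 h libraries were below DMSO and all 1 h libraries above it, and the fall was -1.16 ± 0.04 (SE, limma adjusted p = 8.7e-12). HERPUD1, which helps to remove misfolded ER proteins, had 180.2, 178 and 175 TPM at 24 h, against 432, 431 and 427 TPM at 1 h and 273, 261 and 291 TPM in DMSO. DNAJB9, a co-chaperone of BiP, fell furthest in the list, with 18.02, 16.9 and 17.4 TPM at 24 h, against 59.6, 62.3 and 59.7 TPM at 1 h and 30.3, 25.5 and 29.4 TPM in DMSO. MZB1, a chaperone of immunoglobulin assembly, had a different course, with 1171, 1183 and 1163 TPM at 24 h, against 2452, 2418 and 2276 TPM at 1 h and 2669.8, 2667 and 2517 TPM in DMSO, so that no 1 h library lay above DMSO. JCHAIN, the joining chain of secreted IgA and IgM, averaged 3266 ± 79.7 TPM at 24 h and 3976 ± 53.03 TPM at 1 h (SD, n = 3 each). Beside the same shares of all genes, 4 genes of the ER list were above DMSO and 42 below at 24 h, while 16 were above and 2 below at 1 h.

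Genes of the integrated stress response fell in part. ATF4, its central transcription factor, had 351, 355 and 346 TPM at 24 h, against 591, 593 and 585 TPM at 1 h and 461, 449 and 460.5 TPM in DMSO. DDIT3, the ATF4 target CHOP, averaged 9.08 ± 1.37 TPM at 24 h, 19.5 ± 0.797 TPM at 1 h and 9.88 ± 0.375 TPM in DMSO. Of 36 members of the ATF4 and tRNA synthetase list 15 were lower and 6 higher, and the median of -0.08 was closer to that of all genes than for the ER list.

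Sterol and fatty acid synthesis was lower at 24 h in 30 of 36 tested genes and higher in 2, with a median of -0.57 and 11 falls of at least 2-fold. INSIG1, the sterol sensor that retains SREBP in the ER and is itself an SREBP target, had 56.1, 55.0 and 57.2 TPM at 24 h, against 225, 227 and 237 TPM at 1 h and 207, 178 and 203 TPM in DMSO. The change was -2.01 ± 0.06 (SE, limma adjusted p = 3.1e-13). HMGCS1, which makes HMG-CoA, had 18.8, 18.1 and 16.9 TPM at 24 h, against 49.4, 50.7 and 51.3 TPM at 1 h and 43.5, 37.7 and 42.2 TPM in DMSO. DHCR7 and SQLE, which act late and midway in cholesterol synthesis, averaged 157 ± 3.71 and 47.1 ± 1.80 TPM at 24 h, against 365 ± 6.97 and 102 ± 4.13 TPM at 1 h (SD, n = 3 each). Neither differed from DMSO beyond the test's threshold at 1 h (limma adjusted p = 0.68 and 0.22), at differences of 0.04 and 0.09.

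Genes of mitosis and G2/M rose together, 61 of 68 (89.7%) being higher and 2 lower at 24 h, beside 49.8% of all genes higher. The median was 0.55, or 0.40 with median-ratio scaling. Windows of CCNB2 (chr15:59104896-59105195, plus strand) and CKAP2L (chr2:112764560-112764859, minus strand) are shown for the cell cycle genes homology region, through which the DREAM and MuvB complexes act. The letters are from RefSeq (GRCh38.p14) and run 5' to 3' along the gene, with capitals for TTTGAA or, on the other strand, TTCAAA.
CCNB2: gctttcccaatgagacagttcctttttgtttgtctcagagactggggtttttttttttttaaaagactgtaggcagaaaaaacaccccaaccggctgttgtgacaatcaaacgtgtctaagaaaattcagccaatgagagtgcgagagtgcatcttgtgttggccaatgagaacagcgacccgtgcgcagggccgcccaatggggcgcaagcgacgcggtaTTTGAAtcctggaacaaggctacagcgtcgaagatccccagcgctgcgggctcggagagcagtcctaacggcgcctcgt
CKAP2L: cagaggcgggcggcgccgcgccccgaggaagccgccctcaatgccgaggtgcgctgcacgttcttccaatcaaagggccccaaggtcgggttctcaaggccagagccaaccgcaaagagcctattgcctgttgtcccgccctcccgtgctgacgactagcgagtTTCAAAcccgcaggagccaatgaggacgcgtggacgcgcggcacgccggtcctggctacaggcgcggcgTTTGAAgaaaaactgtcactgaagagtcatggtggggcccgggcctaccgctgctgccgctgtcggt
TTTGAA was found in 41 of the 58 listed mitosis genes with a window and in 15.4% of all windows, at -29 in CCNB2 and at -17 and -86 in CKAP2L. The 3 motifs were searched for separately, so that a window can count for more than 1 of them.

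CKAP2L, a spindle protein, had 18.4, 18.3 and 16.9 TPM at 24 h, against 7.75, 8.08 and 7.75 TPM at 1 h and 9.85, 9.24 and 10.1 TPM in DMSO, a rise of 1.09 ± 0.06 (SE, limma adjusted p = 6.7e-10). HJURP, which loads the centromeric histone, had 51.9, 51.9 and 49.2 TPM at 24 h, against 25.9, 24.8 and 24.8 TPM at 1 h and 34.3, 33.1 and 35.0 TPM in DMSO. In both genes the 1 h libraries lay below DMSO and the 24 h libraries above it. CCNB2, cyclin B2, had 344, 348 and 346 TPM at 24 h, against 213, 204 and 199.6 TPM at 1 h and 229, 229.8 and 235 TPM in DMSO. NUSAP1, which bundles spindle microtubules, averaged 148 ± 2.60 TPM at 24 h and 84.7 ± 1.72 TPM at 1 h, while CENPA, the centromeric histone itself, averaged 56.5 ± 2.52 TPM at 24 h and 32.7 ± 1.0999 TPM at 1 h (SD, n = 3 each). The 6 h means of CKAP2L, HJURP and CENPA were above those at 24 h, at 22.3, 61.3 and 74.2 TPM. Those of CCNB2 and NUSAP1 were below, at 339 and 124 TPM. At 24 h, 63 of the 68 genes were above DMSO and 1 below it by the test, while at 1 h 4 were above and 16 below, beside 56.1% and 15.2% of all genes at 24 h and 15% and 7.57% at 1 h.

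Genes of DNA replication had a median of 0.24, nearer to the 0.17 of all genes than that of the mitosis list. Of 60 tested, 38 (63.3%) were higher and 7 (11.7%) lower, beside 49.8% and 19.9% of all genes. TYMS, POLA2 and PRIM1, for nucleotide supply and primer synthesis, rose by 0.41, 0.52 and 0.55, of which TYMS lost its call with spike-in scaling. Regulators of G1 were divided, with 15 of 29 (51.7%) higher and 11 (37.9%) lower. Their median of 0.18 and their share of higher genes were near those of all genes. CDKN1B, which encodes the kinase inhibitor p27, had 118, 113 and 113 TPM at 24 h, against 62.5, 63.4 and 60.8 TPM at 1 h and 85.2, 76.3 and 84.9 TPM in DMSO, and so moved opposite to CDKN1A. CCNG2, an atypical cyclin linked to arrest, had 5.98, 5.54 and 4.86 TPM at 24 h, against 1.21, 1.27 and 1.30 TPM at 1 h, a rise of 1.51 ± 0.08 (SE, limma adjusted p = 3.0e-10).

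Interferon-stimulated genes were higher in 24 of 38 tested members (63.2%) and lower in 7 (18.4%), beside 49.8% and 19.9% of all genes. Of 54 listed, those tested had a median of 0.37 and ran from -1.98 to 1.76. IFI35 had 64.4, 67.0 and 68.7 TPM at 24 h, against 36.5, 35.4 and 34.0 TPM at 1 h and 36.7, 38.5 and 38.3 TPM in DMSO. SAMD9L, an antiviral and antiproliferative protein, had 10.6, 9.63 and 9.61 TPM at 24 h, against 4.17, 4.08 and 4.08 TPM at 1 h. PARP9 averaged 3.23 ± 0.0414 TPM at 24 h and 1.13 ± 0.0837 TPM at 1 h, while its means at 3 and 6 h were 0.832 and 0.956 TPM. In the list of JAK-STAT feedback genes and PIM kinases 13 of 22 (59.1%) were higher and 6 (27.3%) lower (median 0.35). MHC class I presentation had 9 of 19 members higher (47.4%) and 4 lower (21.1%), with a median of 0.18, near the 49.8%, 19.9% and 0.17 of all genes. HLA-B averaged 180.1 ± 4.85 TPM at 24 h and 128 ± 5.02 TPM at 1 h (SD, n = 3 each), and its reads may be shared with closely related genes.

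Genes that add or remove lysine acetylation had medians near that of all genes. EP300, the gene of the labelled drug target, had 34.1, 32.6 and 30.0 TPM at 24 h, against 30.6, 30.2 and 29.8 TPM at 1 h and 21.5, 17.4 and 27.3 TPM in DMSO. The difference between 24 h and 1 h was 0.09 ± 0.14 (SE, limma adjusted p = 0.58). CREBBP had 29.4, 27.0 and 25.2 TPM at 24 h, against 22.1, 22.6 and 21.4 TPM at 1 h and 16.1, 13.5 and 20.2 TPM in DMSO, a difference of 0.29 ± 0.13 (SE, limma adjusted p = 0.067). This passed the test with the replicate block or with only the compared libraries in the fit. Of 20 lysine acetyltransferase genes 10 (50%) were higher and 3 lower (median 0.21), beside 49.8% and 19.9% of all genes, among them NCOA1 and KAT2B, which rose by 0.84 and 0.56. Histone deacetylase genes were higher in 11 of 17 and lower in 3 (median 0.26), HDAC1 with 197, 196 and 193 TPM at 24 h, against 139.9, 143 and 138 TPM at 1 h. BRD3, a bromodomain reader of acetylated histones, had 20.01, 20.9 and 19.7 TPM at 24 h, against 10.2, 11.1 and 9.74 TPM at 1 h, and HEXIM2 rose by 0.97 while HEXIM1 fell. The list that holds them, of BET family readers, P-TEFb and HEXIM genes, had 9 of 26 tested members higher (34.6%) and 4 lower (15.4%). Its median of 0.06 was below that of all genes and became -0.07 with median-ratio scaling. Chromatin remodellers and histone methylation genes (38 of 64 higher, 6 lower) and genes of Mediator and polymerase II initiation (40 of 72 higher, 5 lower) had medians of 0.24 and 0.18, close to that of all genes.

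Metallothioneins and zinc transporters were lower in 11 of 19 tested members and higher in 3 (median -0.26). MT1G had 13.6, 19.4 and 19.7 TPM at 24 h, against 59.6, 60.4 and 61.0 TPM at 1 h, and MT1A and MT1X fell by 2.26 and 0.95. Metallothionein genes are near-identical, so values of single members are uncertain. SLC30A1, the zinc exporter, had 18.1, 16.6 and 14.97 TPM at 24 h, against 46.8, 44.3 and 45.8 TPM at 1 h and 29.1, 22.4 and 31.5 TPM in DMSO, with its 24 h libraries below DMSO and its 1 h libraries above. Iron storage went both ways, FTH1 having 4387, 4437 and 4444 TPM at 24 h, against 3038, 3025 and 2894 TPM at 1 h, and FTL 6267, 6204 and 6168 TPM at 24 h, against 8317, 8429 and 8325 TPM at 1 h. FTH1 rose by 0.57 and FTL fell by 0.43 (limma adjusted p = 8.5e-08 and 9.3e-08), and only the call of FTL was lost with spike-in scaling.

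Among the most abundant transcripts, the cytoskeletal genes ACTB (beta-actin), TMSB4X (thymosin beta 4) and TUBA1B (alpha-tubulin) had the largest gains in TPM after FTH1. ACTB averaged 4888 ± 56.4 TPM at 24 h and 3785 ± 103 TPM at 1 h. TMSB4X averaged 3084 ± 30.3 TPM at 24 h and 2332 ± 28.5 TPM at 1 h, and TUBA1B 2958 ± 17.3 TPM at 24 h and 2383 ± 14.4 TPM at 1 h (SD, n = 3 each). CHCHD2, a mitochondrial protein gene, averaged 2287 ± 68.1 TPM at 24 h and 3259.5 ± 94.1 TPM at 1 h. These changes were 0.37, 0.40, 0.31 and -0.51 on the log2 scale, and all of them, with that of JCHAIN, lost their calls with spike-in scaling.

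Polyadenylated histone transcripts were lower in 14 of 20 tested members and higher in 2 (median -0.44). HIST3H2A averaged 19.5 ± 0.975 TPM at 24 h and 54.2 ± 1.01 TPM at 1 h (SD, n = 3 each), and reads may be shared among histone copies. Epithelial genes were mixed, with 6 of 13 tested members lower and 3 higher. KRT6C, a keratin outside that list, had 3.08, 2.38 and 2.99 TPM at 24 h, against 30.4, 29.2 and 28.3 TPM at 1 h and 32.8, 28.6 and 32.8 TPM in DMSO. KRT6C has near-identical copies, so which keratin the reads came from is uncertain. EDN2, the peptide endothelin-2, had 0.583, 0.480 and 0.493 TPM at 24 h, against 9.86, 9.52 and 9.86 TPM at 1 h and 12.9, 12.4 and 12.9 TPM in DMSO.

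Subunits of core metabolic and housekeeping complexes had medians near 0, below the 0.17 of all genes. The shares of all genes were 49.8% higher and 19.9% lower. Oxidative phosphorylation subunits were higher in 22 of 76 (28.9%) and lower in 4 (5.26%), both below those shares. Members ran from -0.26 to 0.37 with a median of 0.08 (-0.07 with median-ratio scaling). Proteasome subunits were higher in 11 of 37 (29.7%) and lower in 3 (8.11%), also below them. Their median of 0.04 became -0.11 with median-ratio scaling and -0.05 after the length correction. Mitochondrial ribosomal proteins were higher in 12 of 75 (16%) and lower in 22 (29.3%), with a median of -0.05. Glycolysis and hypoxia response genes spread more widely, from -1.59 to 1.08, and 17 of 43 (39.5%) were lower and 9 (20.9%) higher. NDRG1 and ANKRD37, both hypoxia-induced, fell by 1.27 and 1.59. Autophagy and lysosome genes were higher in 35 of 56 (62.5%) and lower in 8 (14.3%). Their median of 0.21 was near that of all genes, with members from -0.80 to 0.80.

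**Figure D4:**
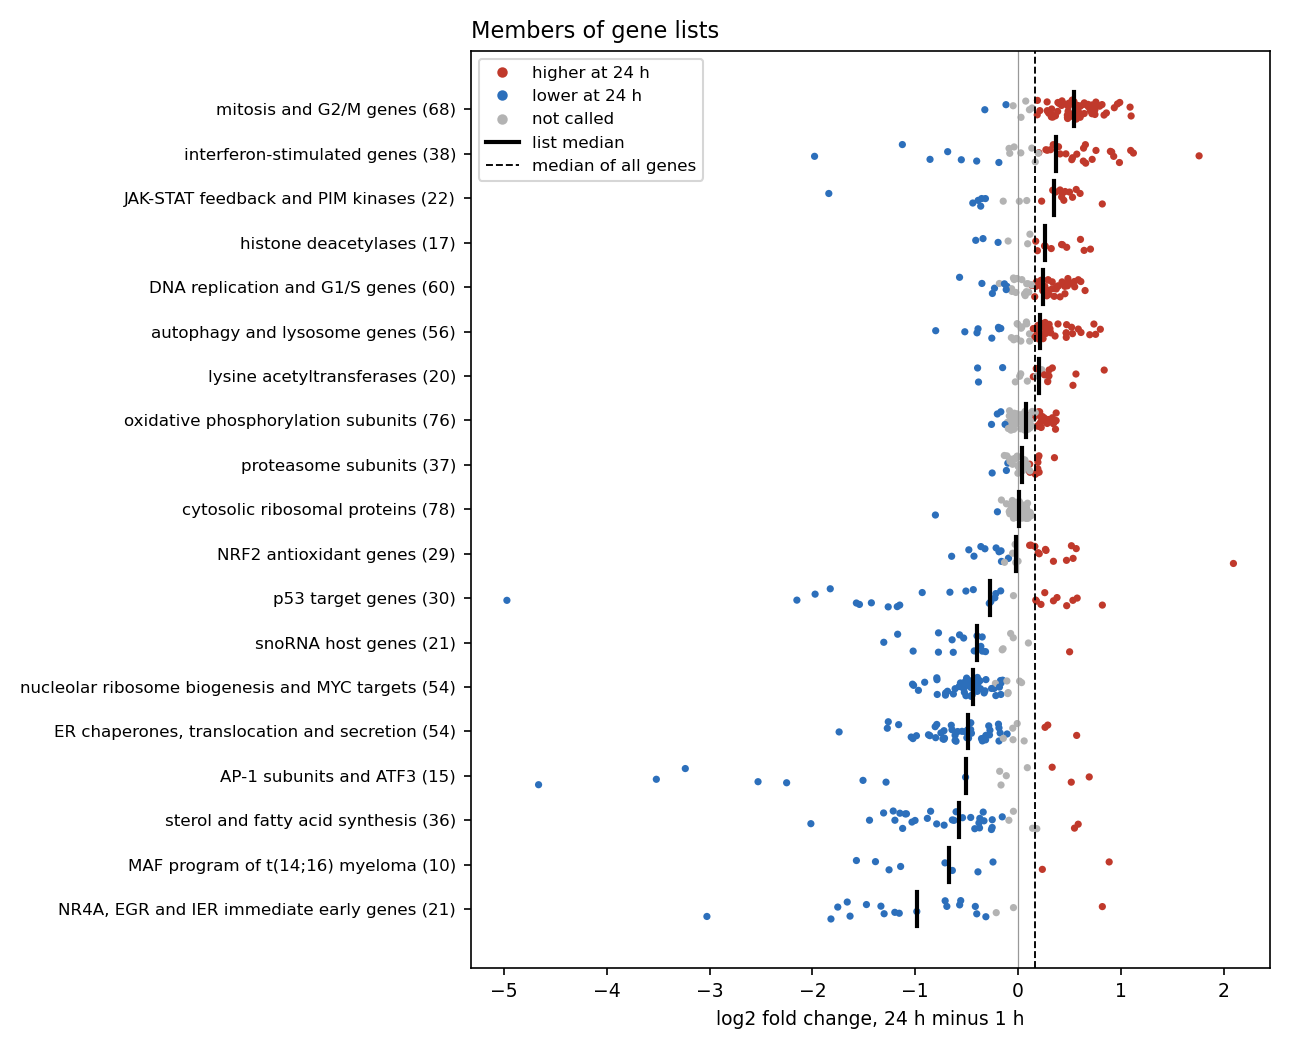
Log2 fold change between KB528 24 h and KB528 1 h (x axis) for the tested members of 19 gene lists (number tested in brackets), one point per gene, red where higher, blue where lower and grey where not called, with black bars at list medians and a dashed line at the median of all genes, 0.17. The median of mitosis genes lies to the right of that line and those of the immediate early, MAF, sterol, AP-1 and ER lists to its left, while ribosomal protein and proteasome genes cluster near 0, with medians that turn below 0 with median-ratio scaling.

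The 3 h and 6 h libraries place these changes in time. For each gene the midpoint between the 24 h and 1 h means was taken on the log2(TPM + 1) scale. Of the 250 genes at least 2-fold higher at 24 h, 8 were past it at 3 h and 66 (26.4%) at 6 h, so that 184 (73.6%) had more of their rise after 6 h. Of the 355 genes at least 2-fold lower, 82 (23.1%) were past it at 3 h and 229 (64.5%) at 6 h. Over all genes tested 26.2% and 48.3% were past it at 3 h and 6 h. LTF, AKR1C3, PEX5L, COL9A2 and PKN3 were still nearer to 1 h at 6 h, with LTF at 22.4 and AKR1C3 at 46.1 TPM. HMOX1, TXNIP and DDIT4 were past their midpoints, at 473, 186 and 164 TPM, as were CDKN1A at 9.30 TPM, FOSB at 0.825 TPM and INSIG1 at 110.4 TPM. HSPA5 and ODC1 were not, at 1013 and 785 TPM.

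The difference between 6 h and 3 h shares no library with the difference between 24 h and 1 h. It called 5074 genes higher (42.3%) and 1648 lower (13.7%). Of the 250 genes at least 2-fold higher at 24 h than at 1 h, 168 (67.2%) were higher at 6 h than at 3 h, which is 3.31% of the genes called higher there. Of the 355 at least 2-fold lower, 286 (80.6%) were lower at 6 h than at 3 h, or 17.4% of that list. The DMSO mean lay between the 24 h and 1 h means for 193 of the 250 genes and for 272 of the 355. Over all genes tested it did so for 5063 of 12002. It was nearer to 1 h for 227 (90.8%) of the genes that rose and for 197 (55.5%) of those that fell, beside 75.1% of all genes tested. Falls therefore comprised 158 genes (44.5%) for which 24 h was the time nearer to DMSO, beside 24.9% of all genes tested. Among them were RRAD, NFKBIA, MDM2 and HEXIM1. For the other 197, such as INSIG1, ITGB7, KRT6C and EDN2, 1 h was the nearer time. The falls include small RNA genes, and without those the number at least 2-fold lower was 247. Small RNA genes had median log2 fold changes against DMSO of 0.58 at 1 h and -0.02 at 24 h. Their part in the timing and DMSO counts was not worked out.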

How the data were processed

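RNA of 15 RPMI-8226 libraries was measured by strand-specific mRNA sequencing. The authors deposited 1 table of TPM, spike-in rows included, and per the submitters' processing notes STAR, featureCounts, FastQC, MultiQC and the hg19 build were used, with versions not given in the sources used here. The sources used here do not state how TPM were derived from read counts or whether counting used the strand. The deposited TPM hold no counts, so depth is unknown and no counting interval is given. The vehicle columns are headed as untreated at 0 h in the table and titled DMSO in the labels, and they are called DMSO here.

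Spike-in rows were left out of the tests, and genes with a mean under 1 TPM over the 15 libraries were dropped. Values were taken as log2(TPM + 1), and limma 3.58.1 in R 4.3.3 (lmFit, eBayes with a trend) was fitted to all 5 groups in 1 model, so that they share an estimate of the spread. P-values were adjusted by Benjamini-Hochberg over all 12002 genes within each comparison, at a threshold of 0.05. Tables and figures used Python 3.11.15 with numpy 2.4.6, pandas 2.3.3 and matplotlib 3.10.9. The fit was tested on simulated data.

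The genes named were 15 regulators, the 15 strongest rises and 15 strongest falls of called genes that averaged 5 TPM or more and had no overlap of libraries (small RNA genes left out), the 5 largest gains and 5 largest losses in mean TPM, and up to 4 members per list with the smallest adjusted p. The members and the lists were chosen with earlier results of these data known. Lists are described by counts and medians, with no test of their own. Other pseudocounts, limits, scalings and fits, and leaving out each library, were tried as alternatives. Promoter windows are the first listed for each symbol in RefSeq (GRCh38.p14), a build other than that of the table, and no coordinates were carried between them. Some results are not reported here.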

Additional observations from a re-analysis of the deposited data

How the results depend on the processing

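The numbers of genes moved with the scaling, the pseudocount and the limit on low values. With spike-in scaling 2923 genes were higher and 1001 lower at 24 h than at 1 h. With median-ratio scaling 3859 were lower and 132 at least 2-fold higher, and after the transcript length correction 4205 and 115. A pseudocount of 0.1 gave 550 genes at least 2-fold higher and 454 lower, and a limit of 5 TPM gave 121, with fewer genes tested. Leaving out each of the 6 libraries gave 5523 to 5832 higher and 2135 to 2281 lower genes, and 236 to 255 and 350.0 to 357 by at least 2-fold. Of 212 named genes, 159 kept their direction and side of the threshold under all 17 alternatives. IKZF3 turned from 0.05 to -0.12 after the length correction (limma adjusted p = 0.016). That correction subtracts from each library the median deviation of genes of similar length. The longest protein-coding genes, IKZF3 among them, had an uncorrected median of 0.16, so that smaller rises than this turn negative. With the replicate block 6036 genes were higher and 2432 lower, 250 and 355 by at least 2-fold. The deviations of same-numbered 24 h and 1 h libraries correlated at -0.073, 0.043 and -0.006. Pairing by number was thus not seen between these times, but so few libraries cannot exclude it, and the other groups were not checked. Without depth, low values such as those of RRAD and FOSB at 24 h carry a counting error that cannot be given.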
